A study of Mus musculus with 4 samples.

Results

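The genes described here encode proteins that hepatocytes secrete into blood plasma, measured as transcripts in macrophages sorted from mouse liver tumours. A list of 40 gene symbols was looked up in the table of 24784 genes, and 39 were found. The symbol Ahsp was not matched and has no value here. It names a chaperone of alpha globin in red cell precursors and, unlike the other 39, is no hepatocyte gene. The 39 genes were read in 4 groups by role, namely 11 carriers and apolipoproteins, 13 genes of coagulation and fibrinolysis, 8 acute phase genes and 7 protease inhibitors or other secreted proteins.

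Polyadenylated RNA was sequenced from 2 control libraries and 2 libraries of the genotype written OXCT1mKO. Oxct1 is the gene of a mitochondrial enzyme of ketone body breakdown. All 4 came from tumour-bearing livers of male mice, 6 to 8 weeks of age, given Hepa 1-6 cells, a mouse hepatoma line, so the controls received the tumour cells too. The labels do not name the promoter that drives the deletion, the strain, the antibodies of the sort, or whether animals were pooled. Oxct1 was 19.3 and 20.3 RPKM (a read density, normalised for gene length and library size) in control 1 and control 2 and 14.7 and 15.4 RPKM in OXCT1mKO 1 and OXCT1mKO 2. It fell by 0.37 ± 0.09 (SE) on the log2(RPKM + 1) scale (limma adjusted p 0.0346), and the gene stayed above 0 in both OXCT1mKO libraries. The Oxct1 call was lost with no filter on low values (limma adjusted p 0.0504), in 5 further alternative fits, and at most reached an adjusted p of 0.225, without OXCT1mKO 1.

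Hepatocytes make most proteins of plasma, among them albumin, the apolipoproteins of circulating lipoproteins and the zymogens and inhibitors of blood clotting. Their transcription depends on liver-enriched factors such as HNF1, HNF4, FOXA and C/EBP proteins. In inflammation, interleukin 6 acting through STAT3 raises acute phase proteins such as haptoglobin, serum amyloid A and fibrinogen, while albumin and transthyretin are lowered. Macrophages are not a major source of most of these proteins, although myeloid cells can make a few of them, such as coagulation factor X.

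The sorted libraries held transcripts of macrophages, of hepatocytes and of hepatoma or fetal liver alike. All 8 macrophage markers examined were above 0 in every library, with Csf1r, the receptor of the macrophage growth factor, at 45.8 and 28.8 RPKM in control libraries against 128 and 115 RPKM in OXCT1mKO libraries. Alb alone stood at 277 to 418 RPKM, higher than Csf1r in each library. The 39 genes together made up 0.215% and 0.2% of the RPKM sum in the controls and 0.326% and 0.198% in OXCT1mKO 1 and OXCT1mKO 2. For read depth, which is not given in the sources used here, an estimate was made. The size of the smallest steps in low values, multiplied by annotated exon length, placed it near 22100000 and 22800000 reads in the controls and 21500000 and 20200000 in OXCT1mKO. On that estimate Alb rested on 13098 to 21696 reads per library, and the sparsest gene, Apoa4, on 3 to 35.

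Most of the plasma protein genes were highest in a single OXCT1mKO library, and few differed between the groups beyond the spread within them. In OXCT1mKO 1, 32 of the 39 stood at their highest level, and 23 had their lowest level in control 2. Of all 19514 genes above 0, 5978 were highest in OXCT1mKO 1 and 4388 lowest in control 2. Both OXCT1mKO libraries lay above both controls for 20 genes (51.3%), against 33.2% of all genes above 0. Both lay below for 3 genes (7.69%), namely Alb, Rbp4 and Fgb, against 28.7% of all genes. The median log2 fold change over the 39 genes was 0.62 on the log2(RPKM + 1) scale, where the median over all 12523 genes tested was 0.00.

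**Figure D1:**
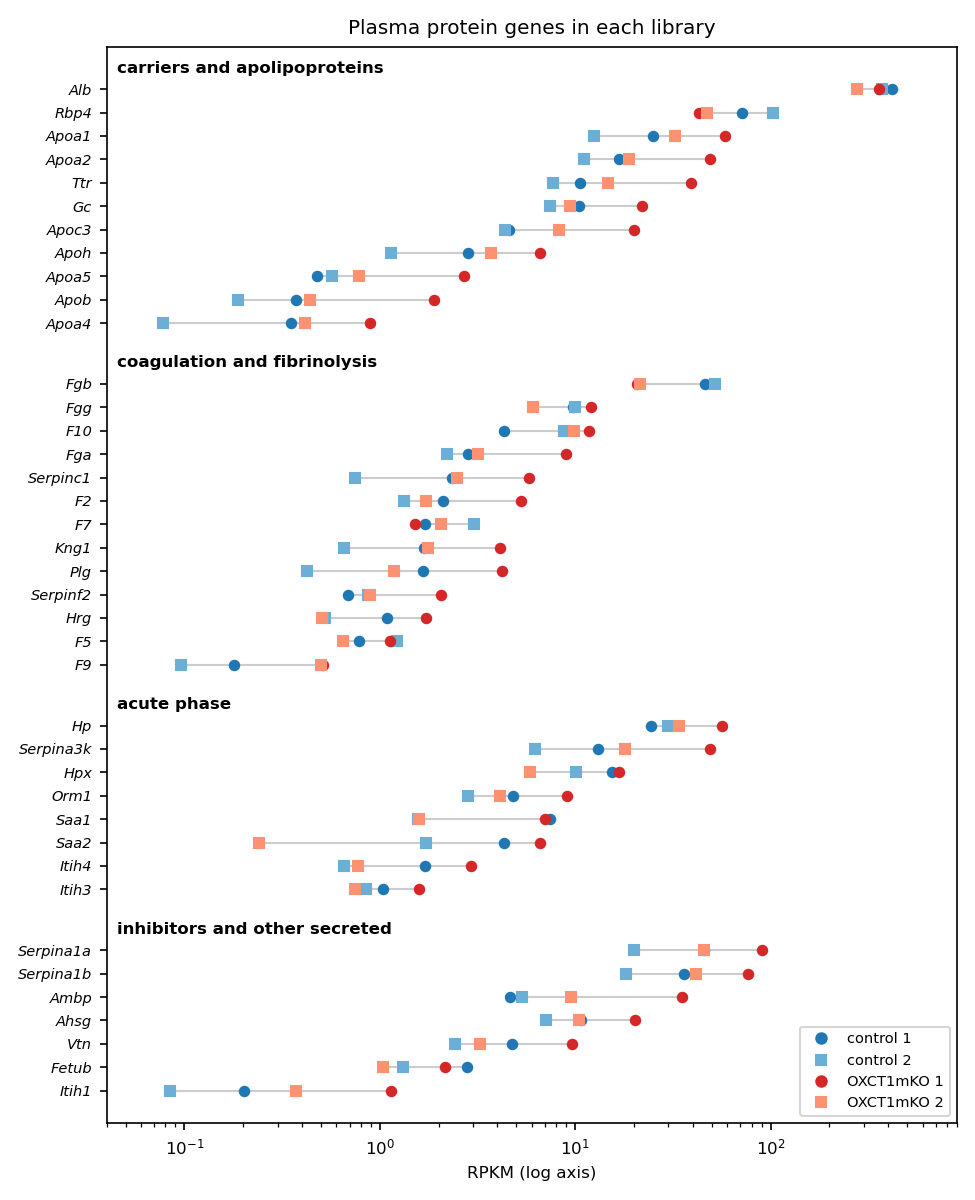
Levels of the 39 plasma protein genes in RPKM on a log axis, grouped by role, with 1 point for each library (blue for control, red for OXCT1mKO, circles for replicate 1 and squares for replicate 2) and a grey line from the lowest to the highest. In 32 of the 39 rows the dark red circle of OXCT1mKO 1 is the rightmost point, while Alb, Rbp4 and Fgb have both blue points to the right.

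Of the 33 genes with a mean of at least 1 RPKM, which could be tested, 2 fell and 0 rose. Apoa5, Serpinf2 and Itih3 had control means of 0.524, 0.782 and 0.941 RPKM. They reached the mean needed for a test only through the OXCT1mKO libraries, and did not pass. The test was limma on log2(RPKM + 1) with Benjamini-Hochberg adjustment over all genes tested, at an adjusted p below 0.05. Fgb and Rbp4 were those that fell, and at an unadjusted p under 0.05 limma counted 8 higher and 2 lower, or 30.3% of the 33, against 47.9% of all genes tested (24.2% higher and 23.7% lower). Among all genes tested, 16.4% rose and 16.4% fell, so the called share of 6.06% among these genes lay below the 32.8% called overall. The lowest adjusted p of a gene with a positive fold change was 0.0551, for Apoc3. Leaving out OXCT1mKO 1 or OXCT1mKO 2 ended both calls, but these fits called only 1 and 10 genes in the whole table. Whether each library came from its own animal is not stated in the labels, so these p-values measure only the spread between the samples, which may be technical.

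The libraries of one group often lay further apart than the group means. For 22 genes the log2 ratio of OXCT1mKO 1 to OXCT1mKO 2 was larger in size than the log2 ratio of the group means, and for 15 the same held for the controls. In 12 genes neither ratio exceeded that of the means, among them Ttr, Apoa1, Apoc3, Apoh, Hp, Serpina3k and Ambp beside Fgb and Rbp4. The same counts over all genes are not given here. OXCT1mKO 1 was higher than OXCT1mKO 2 for 36 of the 39 genes, with a median log2 ratio of 1.22, where the median over all genes tested was 0.02. Control 1 was higher than control 2 for 29 genes, with a median log2 ratio of 0.67, against -0.02 over all genes tested.

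Across the 39 genes these ratios, which share no library, had a Pearson correlation of 0.47 and a Spearman correlation of 0.46. This describes the genes in these 4 libraries, and genes of one library share its depth and cell mix. The sign of the correlations rests on the replicate numbers, which are not shown to pair the libraries. Swapping the numbers in one group would reverse it. F7, Fgb and Rbp4 were the 3 genes that were lower in replicate 1 of both groups. Without Alb, Fgb and Rbp4 the Pearson correlation was 0.39 over 36 genes.

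**Figure D2:**
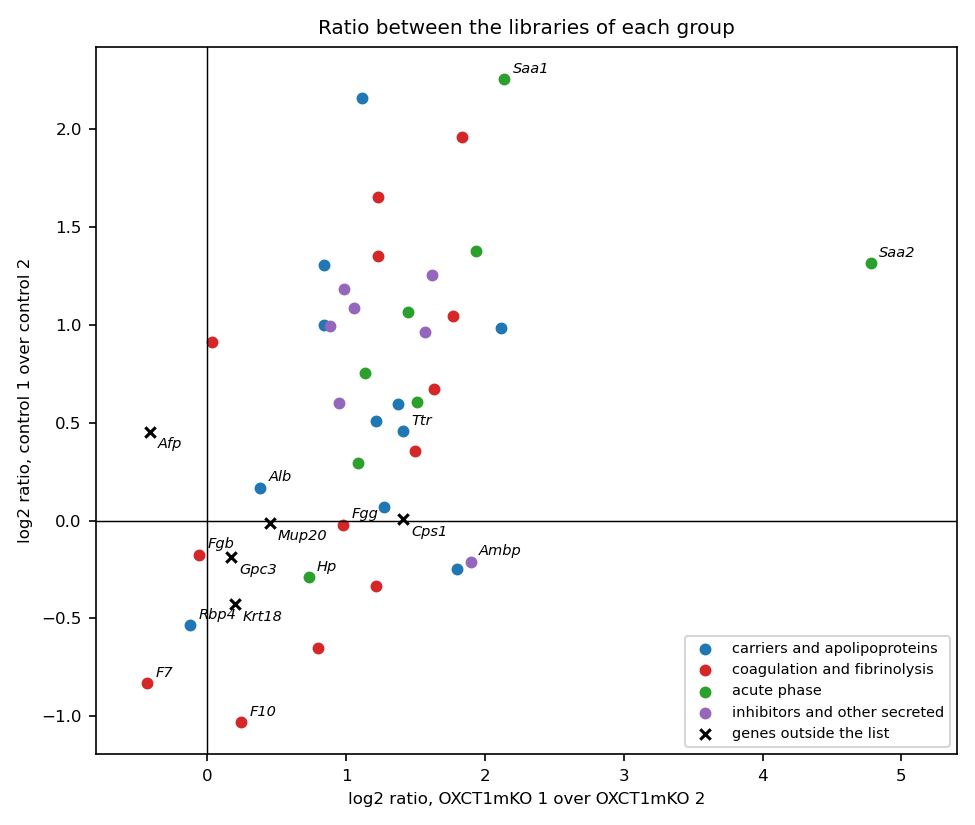
Each point is a gene, placed by the log2 ratio of OXCT1mKO 1 to OXCT1mKO 2 (horizontal axis) and of control 1 to control 2 (vertical axis) and coloured by role, with 5 liver or hepatoma genes that are not in the list as crosses. Of the 39 genes, 29 lie above 0 on both axes, whereas Fgb, Rbp4 and F7 lie below 0 on both and Alb lies near the origin at 0.38 and 0.17.

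Among the carriers, 1 of the 11 genes fell (Rbp4), 0 rose, and the other 8 that were tested did not pass. Of the 9 tested, limma counted 4 higher and 1 lower at an unadjusted p under 0.05, against 24.2% and 23.7% of all genes tested. The median log2 fold change of the 11 carriers was 0.75. Alb, the main protein of plasma, measured 418 and 372 RPKM in control libraries against 360.5 and 277 RPKM in OXCT1mKO libraries. The groups did not overlap, yet Alb missed the threshold with a log2 fold change of -0.32 ± 0.16 (SE; limma adjusted p 0.185).

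Rbp4 encodes the plasma carrier of retinol. It measured 71.2 and 103 RPKM in control libraries against 43.2 and 47.2 RPKM in OXCT1mKO libraries. Its mean fell from 87.2 ± 22.6 to 45.2 ± 2.82 RPKM (SD, n = 2), which is -0.91 ± 0.19 on the log2 scale (limma adjusted p 0.0276). With every gene above 0 in the test, the adjusted p for Rbp4 was 0.0654. Transthyretin, encoded by Ttr, binds the retinol carrier in plasma and also carries thyroid hormone. Ttr measured 10.5 and 7.68 RPKM in control libraries against 39.1 and 14.7 RPKM in OXCT1mKO libraries, so both OXCT1mKO libraries were higher while OXCT1mKO 1 stood far above the other three. Its difference on the log2 scale, 1.33 ± 0.46, missed the threshold (limma adjusted p 0.0839). The level of Rbp4 divided by that of Ttr was 6.75 and 13.4 in the controls and 1.11 and 3.21 in OXCT1mKO.

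The apolipoprotein genes among the 39 had higher means in OXCT1mKO, and 0 passed the test. Apoa1, which encodes the main protein of high-density lipoprotein, measured 25 and 12.5 RPKM in control libraries against 58.3 and 32.6 RPKM in OXCT1mKO libraries (log2 fold change 1.25 ± 0.41, limma adjusted p 0.0733). Apoa2, its partner in the same particle, measured 16.7 and 11.1 RPKM in control libraries against 49.0 and 18.9 RPKM in OXCT1mKO libraries (1.11 ± 0.47, limma adjusted p 0.127). Apoc3, an inhibitor of triglyceride clearance, was nearly level in the controls at 4.6 and 4.38 RPKM and reached 20.0 and 8.27 RPKM in OXCT1mKO. At 1.35 ± 0.39 on the log2 scale it came nearest to the threshold of all higher genes. With a minimum mean of 5 RPKM the adjusted p for Apoc3 was 0.0459, and with libraries scaled to equal sums without globin it was 0.0444.

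Apoh, which encodes a phospholipid-binding glycoprotein, measured 2.82 and 1.14 RPKM in control libraries against 6.63 and 3.71 RPKM in OXCT1mKO libraries (1.07 ± 0.37, limma adjusted p 0.0815). Apoa5, which promotes triglyceride clearance, was below 0.6 RPKM in both controls and 2.71 and 0.778 RPKM in OXCT1mKO. Apob, the structural protein of very-low-density lipoprotein, measured 0.374 and 0.189 RPKM in control libraries against 1.90 and 0.439 RPKM in OXCT1mKO libraries, too low on average to be tested. Apoa4 was lower still, at 0.0781 to 0.892 RPKM. Gc, the vitamin D carrier, overlapped between the groups, with 10.5 and 7.40 RPKM in control libraries against 21.9 and 9.45 RPKM in OXCT1mKO libraries. All of these had their highest value in OXCT1mKO 1.

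**Figure D3:**
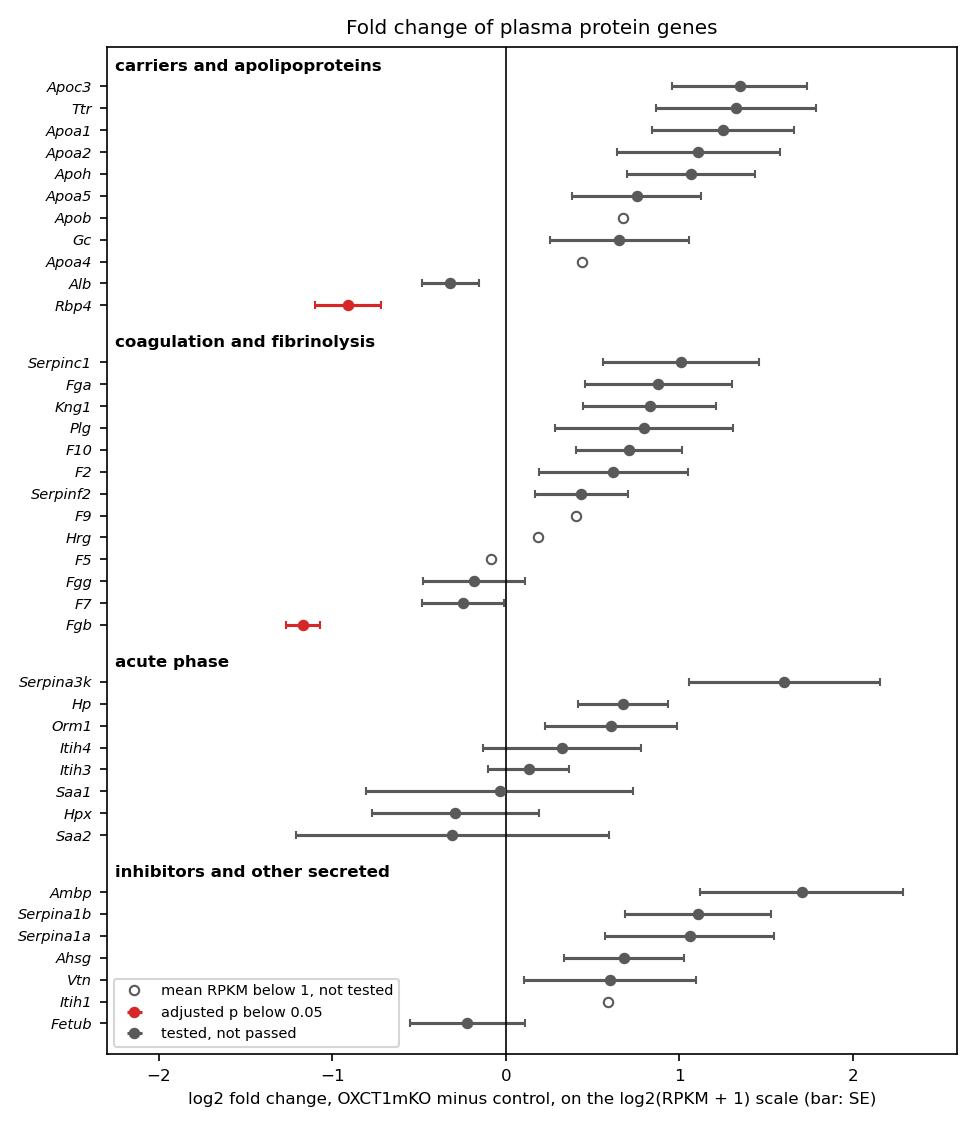
Log2 fold change of each gene, OXCT1mKO minus control, on the log2(RPKM + 1) scale, grouped by role, with bars for 1 standard error and open circles for the 6 genes too low to be tested. Fgb at -1.17 and Rbp4 at -0.91 are the red points, which passed the limma threshold, and most grey points lie to the right of 0 with wide bars.

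The fibrinogen chains differed from each other. Fibrinogen is built from equal numbers of alpha, beta and gamma chains, encoded by Fga, Fgb and Fgg, which lie within 42.1 kb on chromosome 3 of build GRCm38. Fgg spans 83007724 to 83015049 and Fga 83026076 to 83033627 on the plus strand, and Fgb spans 83040141 to 83049863 on the minus strand. Fgb measured 45.9 and 51.8 RPKM in control libraries against 20.7 and 21.6 RPKM in OXCT1mKO libraries, so the groups were well apart and the libraries within each were close. Its mean fell from 48.8 ± 4.15 to 21.1 ± 0.64 RPKM (SD, n = 2), which is -1.17 ± 0.10 on the log2 scale (limma adjusted p 0.0127). Over the fits that each leave out 1 library the fold change stayed between -1.25 and -1.08.

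The other chains did not pass. Fga measured 2.83 and 2.21 RPKM in control libraries against 8.95 and 3.18 RPKM in OXCT1mKO libraries, which is 0.88 ± 0.42 on the log2 scale (limma adjusted p 0.165). Fgg measured 9.81 and 9.94 RPKM in control libraries against 12 and 6.08 RPKM in OXCT1mKO libraries, on both sides of the controls (-0.18 ± 0.29, limma adjusted p 0.653). The chains were therefore far from equal in transcript level. Fgb stood at 16.2 and 23.5 times the level of Fga in the controls, and at 2.31 and 6.80 times in OXCT1mKO.

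**Figure D4:**
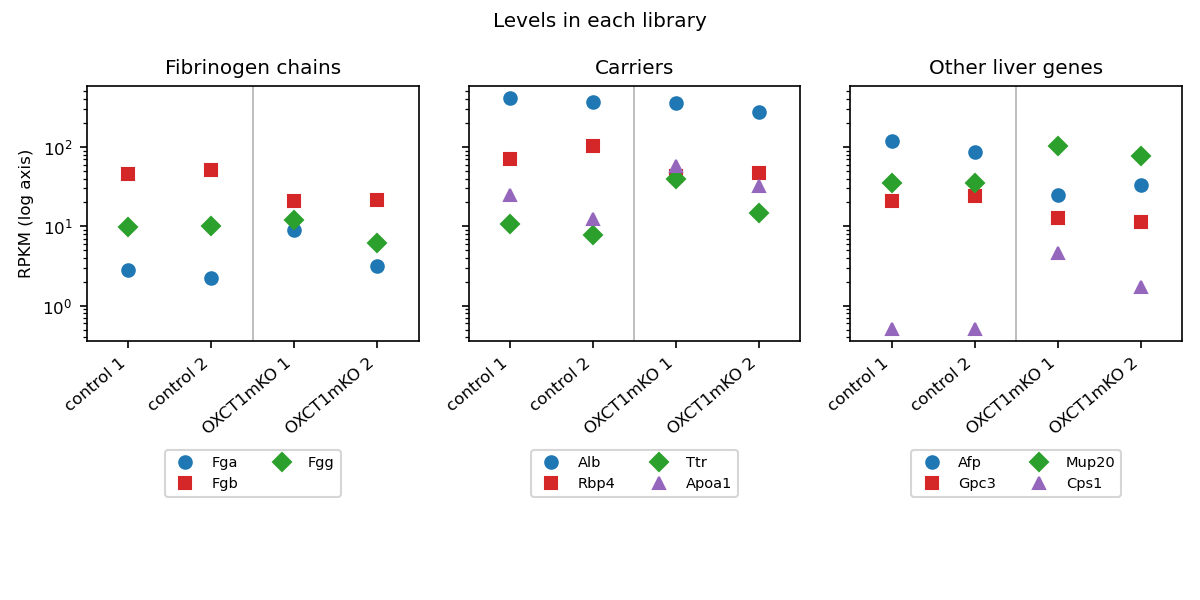
RPKM on a log axis in each of the 4 libraries, for the fibrinogen chains, for 4 carriers and for 4 other liver genes, with a vertical line between the groups. The beta chain Fgb lies at 45.9 and 51.8 RPKM in control libraries against 20.7 and 21.6 RPKM in OXCT1mKO libraries, while Fga and Ttr are highest in OXCT1mKO 1 and Afp is lower and Cps1 higher in both OXCT1mKO libraries.

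Because the chains share a locus but not a pattern, the 250 bases before each of their start sites are shown, with those of Alb for comparison. The start sites and sequences are from RefSeq, build GRCm38.p6, written 5′ to 3′ on the strand of the gene. The windows are chr3:83025903-83026152 on the plus strand for Fga, chr3:83049864-83050113 on the minus strand for Fgb, chr3:83007474-83007723 on the plus strand for Fgg and chr5:90460620-90460869 on the plus strand for Alb. These starts match the gene ends given above for Fgb and Fgg, which are from GENCODE. The RefSeq start of Fga lies 77 bases inside the GENCODE gene, and that of Alb lies 27 bases before it. Capitals mark matches, on either strand, to 5 searched motifs. These were GTTAAT for a half-site of HNF1, TTGCNNAA for C/EBP, CAAAGTCCA for HNF4, TATAAA for the TATA box and TTCNNNGAA for STAT factors, and no matches overlap in these windows.
Fga: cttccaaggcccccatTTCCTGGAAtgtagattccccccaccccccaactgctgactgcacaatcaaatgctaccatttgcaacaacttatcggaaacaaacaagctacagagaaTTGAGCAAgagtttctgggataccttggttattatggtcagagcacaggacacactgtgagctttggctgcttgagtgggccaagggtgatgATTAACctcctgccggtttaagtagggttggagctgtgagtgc
Fgb: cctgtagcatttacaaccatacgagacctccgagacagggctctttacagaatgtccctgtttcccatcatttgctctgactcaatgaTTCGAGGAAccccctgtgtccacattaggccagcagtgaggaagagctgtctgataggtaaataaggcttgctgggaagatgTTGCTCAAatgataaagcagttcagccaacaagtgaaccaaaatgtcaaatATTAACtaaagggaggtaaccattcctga
Fgg: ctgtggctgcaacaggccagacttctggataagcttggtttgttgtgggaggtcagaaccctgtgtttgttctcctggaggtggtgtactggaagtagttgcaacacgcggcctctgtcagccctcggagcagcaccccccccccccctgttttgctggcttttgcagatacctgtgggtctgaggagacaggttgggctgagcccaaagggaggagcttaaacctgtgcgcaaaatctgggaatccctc
Alb: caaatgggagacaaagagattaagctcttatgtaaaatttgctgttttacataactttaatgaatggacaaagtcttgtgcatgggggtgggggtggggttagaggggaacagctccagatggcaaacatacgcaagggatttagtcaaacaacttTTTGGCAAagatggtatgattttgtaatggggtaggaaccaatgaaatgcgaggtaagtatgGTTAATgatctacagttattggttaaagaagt

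The Fga window held a STAT match at 234 to 226 bases before the start, a C/EBP match at 135 to 128 and an HNF1 half-site at 43 to 38. In the Fgb window the same motifs matched at 162 to 154, 80 to 73 and 29 to 24 bases before the start. The Fgg window held no match to any of the 5, and the Alb window held a C/EBP match at 94 to 87 and an HNF1 half-site at 32 to 27. Of all 27025 genes with such a window, 6.52% held the HNF1 half-site, 9.55% the C/EBP motif and 7.18% the STAT motif.

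Of the 13 coagulation and fibrinolysis genes, 1 fell (Fgb), 0 rose, and 9 had a positive and 4 a negative log2 fold change, with a median of 0.43. No gene of this group was higher at an unadjusted p under 0.05 in limma, against 24.2% of all genes tested, and 0 rose after adjustment. Zymogens of the clotting cascade were low. F2, the gene of prothrombin, measured 2.12 and 1.33 RPKM in control libraries against 5.31 and 1.71 RPKM in OXCT1mKO libraries, which overlapped. F9, the X-linked gene of factor IX, measured 0.18 and 0.0958 RPKM in control libraries against 0.513 and 0.502 RPKM in OXCT1mKO libraries, resting on an estimated 6 to 30 reads, and was too low to be tested. In a test with no filter on low values F9 was the 1 gene of the 39 that passed upward (limma).

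F7 and F10 are neighbours on chromosome 8, 30.6 kb from end to end, and encode factors that act one after the other in the extrinsic pathway. F7 measured 1.70 and 3.02 RPKM in control libraries against 1.52 and 2.05 RPKM in OXCT1mKO libraries. F10 measured 4.31 and 8.80 RPKM in control libraries against 11.7 and 9.92 RPKM in OXCT1mKO libraries, with both OXCT1mKO libraries higher (0.71 ± 0.31, limma adjusted p 0.132). The level of F10 divided by that of F7 was 2.54 and 2.91 in the controls and 7.71 and 4.83 in OXCT1mKO. Without control 2 the log2 fold change of F10 was 1.15, with a limma adjusted p of 0.0184, and without control 1 it was 0.27. F5, which encodes a cofactor of activated factor X, measured 0.783 and 1.23 RPKM in control libraries against 1.13 and 0.652 RPKM in OXCT1mKO libraries.

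Inhibitors of clotting and genes of fibrinolysis differed more between the libraries of at least 1 group than between the group means. Serpinc1, which encodes antithrombin, measured 2.35 and 0.745 RPKM in control libraries against 5.80 and 2.48 RPKM in OXCT1mKO libraries (1.01 ± 0.45, limma adjusted p 0.141). Plg, the gene of plasminogen, measured 1.66 and 0.426 RPKM in control libraries against 4.23 and 1.19 RPKM in OXCT1mKO libraries, so that control 1 exceeded OXCT1mKO 2. Serpinf2, which encodes the plasmin inhibitor, and Kng1, which encodes kininogen, had log2 fold changes of 0.43 ± 0.27 and 0.83 ± 0.38, and neither passed. Hrg, a histidine-rich glycoprotein, was 0.507 to 1.73 RPKM and overlapped.

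In the acute phase group 0 of 8 genes rose or fell in limma. At an unadjusted p under 0.05 limma counted 2 higher and 0 lower, against 24.2% and 23.7% of all genes tested. The median log2 fold change of the 8 was 0.23, and -0.20 without OXCT1mKO 1. Hp, which encodes the haemoglobin scavenger haptoglobin, measured 24.5 and 29.9 RPKM in control libraries against 56.5 and 34.1 RPKM in OXCT1mKO libraries (0.68 ± 0.26, limma adjusted p 0.102). Serpina3k, a serpin of mouse liver, measured 13.1 and 6.26 RPKM in control libraries against 49.0 and 18.0 RPKM in OXCT1mKO libraries (1.61 ± 0.55, limma adjusted p 0.0811). For these 2 genes both OXCT1mKO libraries were higher, as for 33.2% of all genes above 0, and for the other 6 the groups overlapped. Serpina3k shares exon positions with Serpina3m on the same strand, and how their reads were divided is uncertain.

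The serum amyloid A genes were higher in replicate 1 of each group. Saa1 measured 7.46 and 1.56 RPKM in control libraries against 6.97 and 1.58 RPKM in OXCT1mKO libraries. Saa2 measured 4.31 and 1.73 RPKM in control libraries against 6.62 and 0.241 RPKM in OXCT1mKO libraries, the widest range of all 39 genes at 27.4 times between libraries. These genes are near copies 13.8 kb from end to end on chromosome 7, and how reads were divided between them is not known. Hpx, which encodes the haem carrier haemopexin, measured 15.4 and 10.1 RPKM in control libraries against 16.8 and 5.89 RPKM in OXCT1mKO libraries. Orm1, which encodes orosomucoid, measured 4.79 and 2.84 RPKM in control libraries against 9.06 and 4.13 RPKM in OXCT1mKO libraries. Itih3 and Itih4, of the family of inter-alpha-trypsin inhibitor heavy chains, lay between 0.654 and 2.95 RPKM.

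The 7 inhibitors and other secreted proteins had a median log2 fold change of 0.68, and 0 passed in either direction. Of the 6 tested, limma counted 2 higher and 0 lower at an unadjusted p under 0.05, against 24.2% and 23.7% of all genes tested. Ambp, which encodes the precursor of bikunin and of a small lipid-binding protein, had the largest log2 fold change of the 39 genes at 1.71 ± 0.59 (limma adjusted p 0.0812). It measured 4.64 and 5.36 RPKM in control libraries against 35.4 and 9.50 RPKM in OXCT1mKO libraries, and the fold change was 0.81 to 2.6 over the fits that each leave out 1 library. Serpina1a, a gene of alpha-1 antitrypsin, measured 45.7 and 20.1 RPKM in control libraries against 90.4 and 45.7 RPKM in OXCT1mKO libraries, so that control 1 and OXCT1mKO 2 were nearly level. Its near copy Serpina1b measured 36.1 and 18.1 RPKM in control libraries against 76.6 and 41.5 RPKM in OXCT1mKO libraries (1.11 ± 0.42, limma adjusted p 0.102). The level of Serpina1a divided by that of Serpina1b stayed between 1.10 and 1.26, and reads may be shared between the copies.

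Ahsg and Fetub encode fetuins, cystatin-like glycoproteins, and are neighbours on chromosome 16. Ahsg measured 10.7 and 7.05 RPKM in control libraries against 20.1 and 10.4 RPKM in OXCT1mKO libraries. Fetub measured 2.80 and 1.32 RPKM in control libraries against 2.17 and 1.04 RPKM in OXCT1mKO libraries, lower in replicate 2 of each group. Vtn, which encodes the adhesive protein vitronectin, measured 4.73 and 2.42 RPKM in control libraries against 9.61 and 3.25 RPKM in OXCT1mKO libraries. Itih1 was the faintest of the group, at 0.0847 to 1.14 RPKM.

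Coagulation genes were then set against carriers and acute phase genes. The mean log2(RPKM + 1) level of the coagulation genes minus that of the carrier and acute phase genes together was -1.30 and -0.97 in the controls and -1.55 and -1.15 in OXCT1mKO. The groups overlapped, and the mean difference between them of -0.21 was smaller than the pooled SD of 0.26 between libraries of a group. With 2 libraries a side, exact permutation reaches no two-sided p under 0.33, so none is given. Counting the fibrinogen genes as acute phase turned the difference to 0.03. Against the carriers alone, a split added after the values were seen, the difference in level was -1.5 and -1.32 in the controls and -1.86 and -1.66 in OXCT1mKO, which did not overlap. Against the acute phase genes alone it was -1.04 and -0.50 in the controls and -1.12 and -0.45 in OXCT1mKO, which overlapped.

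Position in the genome did not bring like fold changes in every case. With neighbours defined as at most 200 kb apart, 22 of the 39 genes lay in 8 clusters. In the 43.3 kb of chromosome 9 that hold Apoa1, Apoc3, Apoa4 and Apoa5, the log2 fold changes were 1.25, 1.35, 0.44 and 0.75. The cluster of Ahsg, Fetub, Hrg and Kng1 on chromosome 16 gave 0.68, -0.22, 0.18 and 0.83, and the Itih genes of chromosome 14 gave 0.32 for Itih4, 0.13 for Itih3 and 0.59 for Itih1. Fibrinogen, with 0.88 for Fga and -1.17 for Fgb, spanned the widest range of the 8. Exons of Apoh, Plg and Serpinc1 overlap exons of a protein-coding gene on the other strand, and the strand setting of the counting is not known.

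Other hepatocyte genes were read beside them. All 18 hepatocyte enzymes had a positive log2 fold change, with a median of 0.90. Of the 15 tested, 5 rose, namely Cps1, Otc, Tdo2, Cyp3a11 and Uox, while 0 fell, against 16.4% and 16.4% of all genes tested. Cps1, Otc and Cyp3a11 reached the mean of 1 RPKM needed for a test only through the OXCT1mKO libraries. Their control means were 0.504, 0.565 and 0.844 RPKM, so their calls depend on that filter. With no filter on low values all 5 enzymes lost their calls, with limma adjusted p of 0.0644 for Otc to 0.104 for Uox. Cps1, the entry enzyme of the urea cycle, measured 0.505 and 0.502 RPKM in control libraries against 4.62 and 1.74 RPKM in OXCT1mKO libraries (1.38 ± 0.36, limma adjusted p 0.0422). As with the plasma proteins, 17 of the 18 enzymes were highest in OXCT1mKO 1 and 16 were lowest in control 2. Among 14 other secreted proteins 10 were tested. Mup20 and Mup3, genes of the urinary pheromone carriers, rose and 0 fell, where 16.4% of all genes tested rose. The Mup3 call was lost with no filter (limma adjusted p 0.0929). Mup20 measured 34.8 and 35.1 RPKM in control libraries against 104 and 76.3 RPKM in OXCT1mKO libraries (1.33 ± 0.16, limma adjusted p 0.0127).

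Further plasma protein genes passed the test in both directions, where 32.8% of all genes tested were called, 16.4% higher and 16.4% lower. Of 13 other genes listed with the carriers, not all of them carriers themselves, 12 were found and 9 tested. Apoc4 and Agt fell and Apoc1 rose. Of 11 other acute phase genes 7 were tested, Fgl1 and Itih2 fell and 0 rose. The called shares of these small lists, 3 of 9 and 2 of 7, were near that of all genes tested. With no filter on low values all 5 lost their calls, with limma adjusted p of 0.0502 (Fgl1), 0.0530 (Agt), 0.0566 (Apoc4), 0.0719 (Itih2) and 0.0754 (Apoc1). Apoc1 and Apoc4 are apolipoprotein genes of one cluster. Apoc1 measured 29.0 and 20.0 RPKM in control libraries against 117 and 56.6 RPKM in OXCT1mKO libraries, whereas Apoc4 measured 29.4 and 24.9 RPKM in control libraries against 15.4 and 10.5 RPKM in OXCT1mKO libraries. Fgl1, a fibrinogen-like secreted protein, measured 7.52 and 11.5 RPKM in control libraries against 3.67 and 3.31 RPKM in OXCT1mKO libraries. Of 13 other coagulation genes only 4 were high enough to test, and Pros1, which encodes protein S and is also made by macrophages, rose by 0.59 ± 0.10 (limma adjusted p 0.0178).

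Liver-enriched transcription factors went both ways, and fetal liver genes were lower in part. Of 12 such factors, 9 were tested, 0 rose and 3 fell, where 32.8% of all genes tested were called in either direction. Those that fell were Foxa2 (-1.11 ± 0.14), Foxa3 (-0.73 ± 0.13) and Hnf4a (-0.53 ± 0.14, limma adjusted p 0.0479). Both OXCT1mKO libraries lay below both controls for 4 of the 12 factors and above them for 4. Among all genes above 0 these shares were 28.7% and 33.2%. Hnf4a, a nuclear receptor that drives many plasma protein genes, measured 3.54 and 3.74 RPKM in control libraries against 2.54 and 1.92 RPKM in OXCT1mKO libraries. Its call was lost in 8 of 10 alternative fits in which it was tested, with a limma adjusted p of 0.0506 to 0.231. Of 10 hepatoma and fetal liver markers 7 were tested. Afp, Gpc3 and Sox9 fell and 0 rose, where 16.4% of all genes tested fell. Afp, the neighbour of Alb and the main plasma protein of fetal liver and hepatoma, measured 118 and 86.0 RPKM in control libraries against 24.5 and 32.7 RPKM in OXCT1mKO libraries (-1.8 ± 0.21, limma adjusted p 0.0127). The level of Alb divided by that of Afp was 3.55 and 4.33 in the controls and 14.7 and 8.48 in OXCT1mKO.

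Markers of some other cells differed between the groups, while those of neutrophils, red cells and bile duct varied more within the controls. The summed level of the 10 hepatoma and fetal liver markers measured 739 and 1001 RPKM in control libraries against 569 and 515 RPKM in OXCT1mKO libraries. Most of that sum in each library was the keratins Krt18 and Krt8, which did not pass (limma adjusted p 0.055 and 0.289). Krt18 alone measured 330 and 444 RPKM in control libraries against 268 and 234 RPKM in OXCT1mKO libraries. The sum thus mainly follows these keratins. The summed level of the 18 hepatocyte enzymes measured 64.4 and 43.9 RPKM in control libraries against 177 and 79.0 RPKM in OXCT1mKO libraries, with 0 of the 18 absent from any library. Of 8 macrophage markers 6 rose, of 7 Kupffer cell markers 6 rose and of 7 liver endothelial markers 5 rose, with 0 falling in each list. Of 8 pancreatic acinar markers 8 fell, 3 of 6 T cell markers found fell, and 1 of 6 neutrophil and 1 of 6 bile duct markers fell, with 0 rising. Among all genes tested 16.4% rose and 16.4% fell. The neutrophil gene S100a8 measured 42.6 and 582 RPKM in control libraries against 239 and 154 RPKM in OXCT1mKO libraries. The T cell markers summed to 177 and 109 RPKM in control libraries against 37.0 and 66.3 RPKM in OXCT1mKO libraries. Of 9 red cell markers 0 passed in limma, with 0 at an unadjusted p under 0.05, and Hba-a1 was at 7794 RPKM in control 1, whereas control 2 had 265 RPKM and the OXCT1mKO libraries 104 and 94.0 RPKM. The part of these cells in the plasma protein values was not tested, and in bulk samples fewer cells of a type and less RNA per cell cannot be told apart.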

How the data were processed

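The authors deposited RPKM values in a single table of gene symbols by samples, and each column was matched to its sample by the name in the sample's title. The tools named, per the submitters' processing notes, are STAR 2.10 and R 4.0.5, with build mm10. The read counter, strand setting, annotation and library size definition stand as not given in the sources used here. A microarray is spoken of in the labels' protocol, whereas the series type is sequencing.

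RPKM values are not counts, so log2(RPKM + 1) entered limma (version 3.58.1, R 4.3.3), with 1 coefficient for the group and a variance trend, on the 12523 genes with a mean of at least 1 RPKM. Tests were two-sided with Benjamini-Hochberg adjustment over all of them, and the fit was tested on simulated data. The pseudocount of 1 understates fold changes of low genes. Ratios of low values placed the depth of control 2, OXCT1mKO 1 and OXCT1mKO 2 at 1.026, 0.967 and 0.911 times that of control 1. Estimated reads rest on exon lengths of GENCODE M21 (GRCm38, also called mm10) and are approximate. Promoter windows were found for 32 of the 39 genes, the first entry being used where there were more.

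The 40 genes and the 16 comparison lists were chosen with earlier results of these data known. The genes named are all 39 found, up to 4 with the smallest p in each hepatocyte or plasma list, and Oxct1, Afp, Gpc3, Mup20, Cps1, Hnf4a, Hba-a1, Csf1r, Krt18 and Ctrb1. Uox, in the report and in the alternatives, was named outside this rule, after its values were seen. Krt8, S100a8, Stat3, Osmr and Il1r1 were also named outside it, in the report only. Alternatives were another pseudocount, filter, variance model or scaling (TMM, an unweighted trimmed mean of log ratios computed on the RPKM values), a replicate block, and leaving out each library.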

Additional observations from a re-analysis of the deposited data

How the results depend on the processing

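The replicate numbers are not shown to pair the libraries: over 12523 genes the deviations of same-numbered libraries from their group means correlated at 0.05. With a replicate block, 13 of the genes rose and 2 fell, against 0 and 2 without it. The share of all genes called in that fit is not given here, so these counts cannot be read as particular to these genes. With no filter on low values, 1 gene rose (F9) and 1 fell (Fgb), among 1191 and 1149 of all genes, against 2058 and 2052. A minimum mean of 5 RPKM, and libraries scaled to equal sums without globin, each gave 1 gene that rose, Apoc3 in both. That scaling moved the median of all genes to 0.09, with 2718 higher and 1479 lower, and gave Saa1 a log2 fold change of 0.035 in place of -0.04. With a pseudocount of 0.1 the medians of carriers and coagulation genes were 1.33 and 0.80, and the difference of the medians of coagulation and of carrier and acute phase genes was 0.083 in place of -0.22. With fibrinogen genes as acute phase the difference of mean levels was 0.028 in place of -0.21. In these cases the cause was not tested.

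Leaving out each library in turn, where a lone library was taken to vary as the others do, gave 0 to 2 genes that rose and 0 to 2 that fell, among 0 to 2362 and 1 to 2056 of all genes. Without control 1 the genes that rose were Apoa1 and Apoh, and without control 2 the gene was F10. The median log2 fold change ranged from 0.17 to 1.09 over the 39 genes, 0.23 to 1.28 for carriers, 0.086 to 0.78 for coagulation and -0.20 to 0.95 for acute phase genes, lowest without OXCT1mKO 1 in each group. Fold changes crossed 0 for Fgg (-0.62 to 0.26), F7 (-0.54 to 0.041), Hpx (-0.97 to 0.39), Saa1 (-0.90 to 0.83), Saa2 (-1.62 to 1.00), Itih3 (-0.15 to 0.42), Itih4 (-0.26 to 0.90), Fetub (-0.58 to 0.13), Vtn (-0.061 to 1.26), Proc (-0.50 to 0.59) and Serpind1 (-0.43 to 0.31). The calls of Oxct1 and of the genes outside the list that the text names were lost without either OXCT1mKO library, in fits that called 1 and 10 of all genes. Fgb and Rbp4 kept their direction in all 11 alternative fits. Depth limits F9, Apoa4 and Itih1, with estimates of under 10 reads in control 2.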

Other observations

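Genes of interleukin 6 signalling, which acts on hepatocytes and leukocytes alike, passed the test in part. The 9 genes listed include receptors and signalling parts, such as Il6ra, Il6st and Jak1, beside induced genes such as Socs3. Of the 9, 6 rose and 0 fell in limma, against 16.4% and 16.4% of all genes tested, with a median log2 fold change of 0.74. Stat3, Osmr and Il1r1, a receptor of interleukin 1, did not pass (limma adjusted p 0.0905, 0.0526 and 0.458). Il6ra, which encodes the receptor of interleukin 6, measured 3.35 and 4.39 RPKM in control libraries against 15.0 and 10.8 RPKM in OXCT1mKO libraries. Socs3, a feedback inhibitor that STAT3 induces, measured 187 and 201 RPKM in control libraries against 307 and 339 RPKM in OXCT1mKO libraries. None of the 9 was lowest in control 2 and 6 were highest in OXCT1mKO 1. Which cells these transcripts came from was not tested.

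Among the 32 promoter windows found, the HNF1 half-site matched in 8 (25%) and the C/EBP motif in 11 (34.4%), against 6.52% and 9.55% of all windows of that length. STAT matches were found in 4 windows (F9, Fga, Fgb and Itih4), TATA box matches in 5 (15.6%, against 13% of all) and HNF4 matches in 0, where 0.381% of all windows held one.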
